A study of Mus musculus with 40 samples.

Results

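The 10 classical histone deacetylase genes described here are Hdac1, Hdac2, Hdac3 and Hdac8 (class I), Hdac4, Hdac5 and Hdac7 (class IIa), Hdac6 and Hdac10 (class IIb) and Hdac11 (class IV). Each was read from probe sets annotated to that gene alone, 17 in all, and the probe set with the highest mean over all arrays stood for the gene. All 10 passed the filter on dim probe sets and were among the 14916 genes tested. RNA came from mouse B6D2 embryos, a hybrid strain, at the 2-cell and 1-cell stages. Somatic cell nuclear transfer (SCNT) embryos, whose donor nuclei came from B6D2 female cumulus cells, and fertilized embryos were each held in α-amanitin, which blocks RNA polymerase II, or kept untreated. Parthenogenetic embryos, which develop without sperm, were untreated only. That gives 10 groups of 4 arrays each, except that 1 of the 4 arrays of untreated 1-cell SCNT embryos holds no values, which leaves 3 there and 39 of 40 in all. No embryo's age, pool size, amanitin dose or treatment time is given in the labels. The labels name MEMα as medium for most SCNT samples and KSOM for 1 fertilized sample, so medium and origin cannot be told apart.

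Histone deacetylases remove acetyl groups from lysines, and deacetylated histones package chromatin that is mostly less transcribed. Class I enzymes are mostly nuclear, and Hdac1, Hdac2 and Hdac3 among them act as catalytic subunits of corepressor complexes. Class IIa enzymes shuttle between nucleus and cytoplasm and bind MEF2 factors, and class IIb enzymes act largely in the cytoplasm. In the mouse the embryonic genome is first broadly transcribed at the 2-cell stage, while 1-cell embryos run mostly on RNA stored in the oocyte. Inhibitors of histone deacetylases are widely used to raise the yield of SCNT embryos.

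Levels below are quantile normalized log2 values of the deposited intensity plus 6.9, and a difference is that of 2 log2 group means, the group named first minus the other, given with its standard error (SE). Adjusted p-values come from limma over all 14916 genes, and a gene is said to have risen or fallen where its adjusted p is under 0.05. The labels do not say whether replicates are separate cultures or collections of embryos; the p-values therefore measure only the spread between these samples, which may be technical. The arrays are scaled to a common total, so a value is a share of each sample's RNA. In pooled embryos, fewer embryos with a transcript and less of it in each cannot be told apart. The number of arrays limits the precision.

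Within a group, the correlation of 2 arrays across genes lay between 0.940 and 0.980. The 4 arrays of 2-cell SCNT embryos with amanitin had the lowest correlations with their own group (medians from 0.941 to 0.945) and the highest poly(A) controls, 10.04 to 10.58 on the log2 scale. Those controls lay at 8.12 to 9.15 in untreated 2-cell SCNT embryos, at 3.52 to 3.88 in all 1-cell SCNT arrays and at 5.93 to 8.40 in all others. The 18S ribosomal RNA control was lower in untreated 2-cell embryos of all 3 origins (9.47 to 11.54) than in all other arrays (12.50 to 13.58). The part of these differences in the results was not tested. Of the markers listed, 4 measured genes of the 2-cell stage summed to intensities of 7422 to 12348 in untreated 2-cell embryos, against 163.5 to 271.3 in 2-cell embryos with amanitin and 60.4 to 899.6 in 1-cell embryos. The 10 oocyte markers summed to 8767 to 22809 in untreated 2-cell embryos, against 26433 to 48289 in all other groups. The 9 measured cumulus and granulosa markers summed to 1232 to 3889 in untreated 2-cell embryos and to 427.2 to 1129 in all others. Spermatid markers (6 measured) stayed at sums of 93.7 to 273.3 and blood markers (2 measured) at 9.5 to 88.8. The part of these marker differences in the results was not tested.

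The window before the gene is shown for Hdac6 and Hdac5, called higher at the 2-cell stage in all 3 origins and in SCNT and fertilized embryos, respectively. For both, the RefSeq promoter table (GRCm38.p6) holds bases outside every annotated transcript of the gene. It also holds 105 such bases for Hdac11, called higher with stage in SCNT embryos alone, with 1 GGGCGG and 1 CCAAT. For Hdac7, called lower with stage in SCNT embryos alone, it holds 250 such bases with neither. The stretches of Hdac11 and Hdac7 are not shown. Capitals mark GC boxes (GGGCGG) and CCAAT boxes (CCAAT) on either strand, 5′ to 3′ along the gene's strand, and the last base shown is the one just before the gene's annotated span.
Hdac6, chrX:7948048-7948139, minus strand: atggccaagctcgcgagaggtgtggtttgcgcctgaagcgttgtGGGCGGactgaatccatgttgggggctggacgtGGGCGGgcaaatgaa
Hdac5, chr11:102230173-102230422, minus strand: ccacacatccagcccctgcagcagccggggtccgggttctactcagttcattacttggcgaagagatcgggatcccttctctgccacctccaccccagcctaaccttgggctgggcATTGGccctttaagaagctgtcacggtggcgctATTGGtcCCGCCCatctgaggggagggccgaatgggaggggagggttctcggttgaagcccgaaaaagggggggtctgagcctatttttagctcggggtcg

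Over the 92 bases of Hdac6 there were 2 GC boxes and no CCAAT box, and over the 250 bases of Hdac5 there were 1 GC box and 2 CCAAT boxes. Neither stretch held TATAAA, the E-box CACGTG or the homeobox letters TAATCC. The 92 bases are only part of the 250-base window before the annotated Hdac6 start. That whole window held 4 GC boxes and 2 CCAAT boxes. Windows of 250 bases before an annotated start were held for 7 of the 10 genes, all but Hdac1, Hdac3 and Hdac10. GGGCGG was in a window of 6 of these 7 genes and in 32.7% of all 32851 windows, and CCAAT was in a window of 5 of the 7 and in 33.8% of all. TATAAA was found for Hdac8 alone of the 7 and in 12.4% of all windows, while CACGTG (6.02% of all) and TAATCC (6.25% of all) were found for none. Some genes have more than 1 annotated start and so more than 1 window, and several windows overlap longer annotated transcripts of the same gene. The members are thus counted by gene and the background by window. The members' windows held 48.4% (Hdac8) to 74.0% (Hdac7) G and C, against a median of 52.4% over all windows. The part of this in the motif counts was not tested.

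Hdac1 and Hdac6 rose several-fold from the 1-cell to the 2-cell stage in every origin, and both fell with amanitin at the 2-cell stage in SCNT and fertilized embryos. Hdac3 and Hdac4 were called lower with stage in all 3 origins, by less. For both genes the calls in SCNT and parthenogenetic embryos were lost under other settings given below. The fall of Hdac4 in fertilized embryos was not called in either of the gene's other probe sets. Hdac2 fell with stage in fertilized embryos, and that change differed from the one in SCNT embryos; its difference from parthenogenetic embryos depended on the scaling and the probe set. Hdac7, Hdac8 and Hdac11 passed the threshold for stage in SCNT embryos alone, and of these 3 the difference from fertilized embryos was called for Hdac11 only, a call that 1 array decided.

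From the 1-cell to the 2-cell stage, SCNT embryos had 5 of 10 members higher (26.3% of all genes tested) and 4 lower (34.4% of all genes). Parthenogenetic embryos had 3 higher (21.7% of all genes) and 2 lower (27.4%). Fertilized embryos had 3 higher (25.8% of all genes) and 3 lower (34.2%). The counts in parthenogenetic and fertilized embryos are near those backgrounds. Of the SCNT calls, those of Hdac3, Hdac8, Hdac4 and Hdac7 were lost in the values as deposited. The SCNT call of Hdac10 was lost without 1-cell replicate 1 (adjusted p = 0.232). No more than the values of single members is read from the counts of any origin. The members' median difference was 0.50 in SCNT embryos against -0.14 over all genes, 0.17 against -0.04 in parthenogenetic embryos and 0.0039 against -0.12 in fertilized embryos.

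With amanitin at the 2-cell stage, SCNT embryos had 3 members higher (39.6% of all genes) and 2 lower (29.7%), and fertilized embryos had 5 higher (38.6%) and 3 lower (25.8%). Their median differences were 0.15 and 0.34, where all genes had medians of 0.28 and 0.27, so values are best read against that common shift. At the 1-cell stage no member was called with amanitin by limma, neither in SCNT embryos (0.429% of all genes called) nor in fertilized embryos (6.03% called). At an unadjusted p under 0.05 there was 1 member in SCNT embryos, Hdac1, and 3 in fertilized embryos, Hdac1, Hdac4 and Hdac10. The comparisons of stage and of amanitin at the 2-cell stage share the untreated 2-cell arrays, so their opposite signs for a gene are not separate observations.

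**Figure D1:**
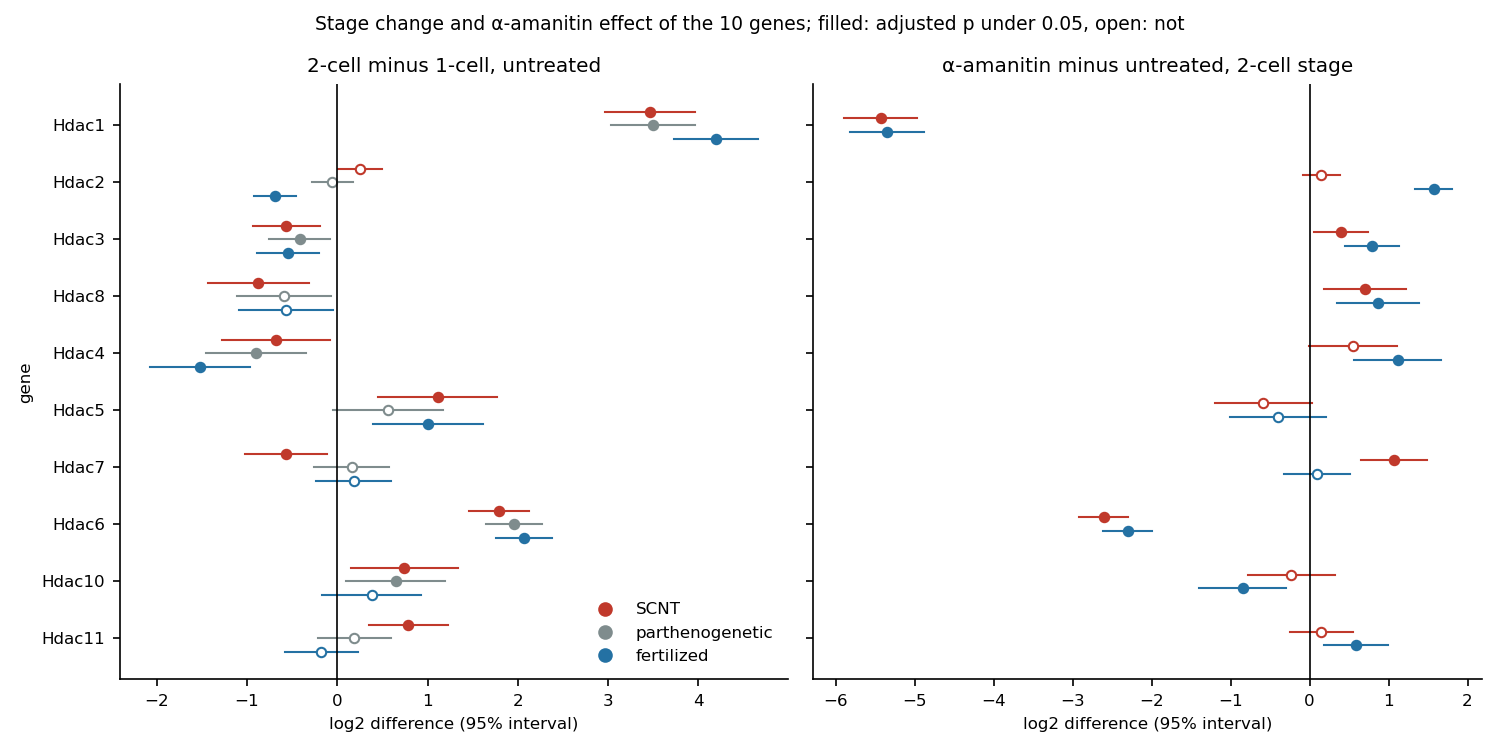
Log2 differences with 95% intervals (x axis) of the 10 genes (rows), with 2-cell minus 1-cell on the left and α-amanitin minus untreated at the 2-cell stage on the right, and filled points where the adjusted p is under 0.05. Hdac1 and Hdac6 lie far to the right of 0 on the left and far to its left on the right, at 3.47 to 4.19 and 1.79 to 2.07 for stage and at -5.43 to -5.35 and -2.61 to -2.30 for amanitin.

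Among class I genes, Hdac1 encodes a catalytic subunit of the SIN3, NuRD and CoREST complexes and is needed for mouse development. Its levels in untreated 2-cell SCNT embryos were 11.03, 11.25, 11.11 and 11.02, against 7.64, 7.66 and 7.61 in untreated 1-cell SCNT embryos. In parthenogenetic embryos they were 10.90, 11.05, 10.94 and 10.79 at the 2-cell stage, against 7.35, 7.45, 7.55 and 7.31 at the 1-cell stage. In fertilized embryos they were 11.27, 11.55, 11.20 and 11.52 at the 2-cell stage, against 7.34, 6.92, 7.69 and 6.81 at the 1-cell stage. Every untreated 2-cell array was above every 1-cell array in each origin. The rise was 11.0-fold in SCNT embryos (3.47, SE 0.25, adjusted p = 1.54e-15), 11.3-fold in parthenogenetic embryos (3.50, SE 0.23, adjusted p = 3.02e-16) and 18.3-fold in fertilized embryos (4.19, SE 0.23, adjusted p = 3.69e-19). The smaller rise in SCNT than in fertilized embryos was not called (-0.73, 95% interval -1.41 to -0.04, adjusted p = 0.138), nor was that in parthenogenetic embryos (-0.69, interval -1.35 to -0.03, adjusted p = 0.0978).

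With amanitin, Hdac1 was at 6.63, 5.77, 5.81 and 4.48 in 2-cell SCNT embryos and at 5.83, 6.43, 5.68 and 6.20 in 2-cell fertilized embryos. The lowest SCNT array, replicate 4, was the only one of the 39 on which the probe set lay under the overall median of 5.34. Relative to untreated 2-cell embryos, Hdac1 was 43.1-fold lower in SCNT embryos (-5.43, SE 0.23, adjusted p = 8.64e-23) and 40.8-fold lower in fertilized embryos (-5.35, SE 0.23, adjusted p = 1.70e-22). The effect in SCNT minus that in fertilized embryos was -0.08, with a 95% interval of -0.74 to 0.58. Within amanitin-treated embryos, Hdac1 was lower at the 2-cell than at the 1-cell stage, by -1.34 (SE 0.23, adjusted p = 3.60e-06) in SCNT embryos and by -0.64 (SE 0.23, adjusted p = 0.0226) in fertilized embryos. The fertilized difference was no longer called without 1-cell amanitin replicate 1 (adjusted p = 0.0517), 2-cell amanitin replicate 1 (0.0658) or 2-cell amanitin replicate 3 (0.0901), nor in the values as deposited (-0.39, adjusted p = 0.128). At the 1-cell stage Hdac1 with amanitin had 6.94, 7.27, 6.78 and 7.07 in SCNT embryos and 6.76, 6.67, 6.67 and 6.61 in fertilized embryos, each below every untreated array of its origin. Those differences, -0.62 (SE 0.25) in SCNT and -0.51 (SE 0.23) in fertilized embryos, did not pass (adjusted p = 0.406 and 0.197).

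Hdac6, of class IIb, deacetylates tubulin and other cytoplasmic proteins, and its gene lies on the X chromosome. Its levels in untreated SCNT embryos were 9.22, 9.40, 9.15 and 9.23 at the 2-cell stage, against 7.35, 7.59 and 7.45 at the 1-cell stage. In parthenogenetic embryos they were 9.47, 9.94, 9.57 and 9.12 at the 2-cell stage, against 7.46, 7.58, 7.66 and 7.56 at the 1-cell stage. In fertilized embryos they were 10.06, 9.94, 9.75 and 9.54 at the 2-cell stage, against 8.26, 7.61, 7.62 and 7.52 at the 1-cell stage. The stages did not overlap in any origin. The rise was 3.46-fold in SCNT embryos (1.79, SE 0.17, adjusted p = 2.35e-12), 3.89-fold in parthenogenetic embryos (1.96, SE 0.15, adjusted p = 4.87e-14) and 4.20-fold in fertilized embryos (2.07, SE 0.15, adjusted p = 3.69e-15).

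In 2-cell embryos with amanitin Hdac6 was at 6.68, 6.75, 6.45 and 6.70 in SCNT embryos and at 7.85, 7.59, 7.27 and 7.37 in fertilized embryos. It was 6.09-fold lower than without amanitin in SCNT embryos (-2.61, SE 0.15, adjusted p = 2.29e-18) and 4.94-fold lower in fertilized embryos (-2.30, SE 0.15, adjusted p = 1.43e-16). The difference of these effects was not called (-0.30, 95% interval -0.74 to 0.14, adjusted p = 0.290). In amanitin-treated SCNT embryos Hdac6 was lower at the 2-cell than at the 1-cell stage, where it had 7.18, 7.28, 7.39 and 7.63 (-0.73, SE 0.15, adjusted p = 9.15e-05). In fertilized embryos, whose 1-cell amanitin arrays had 7.72, 7.79, 7.85 and 7.81, that difference did not pass (-0.27, SE 0.15, adjusted p = 0.160).

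**Figure D2:**
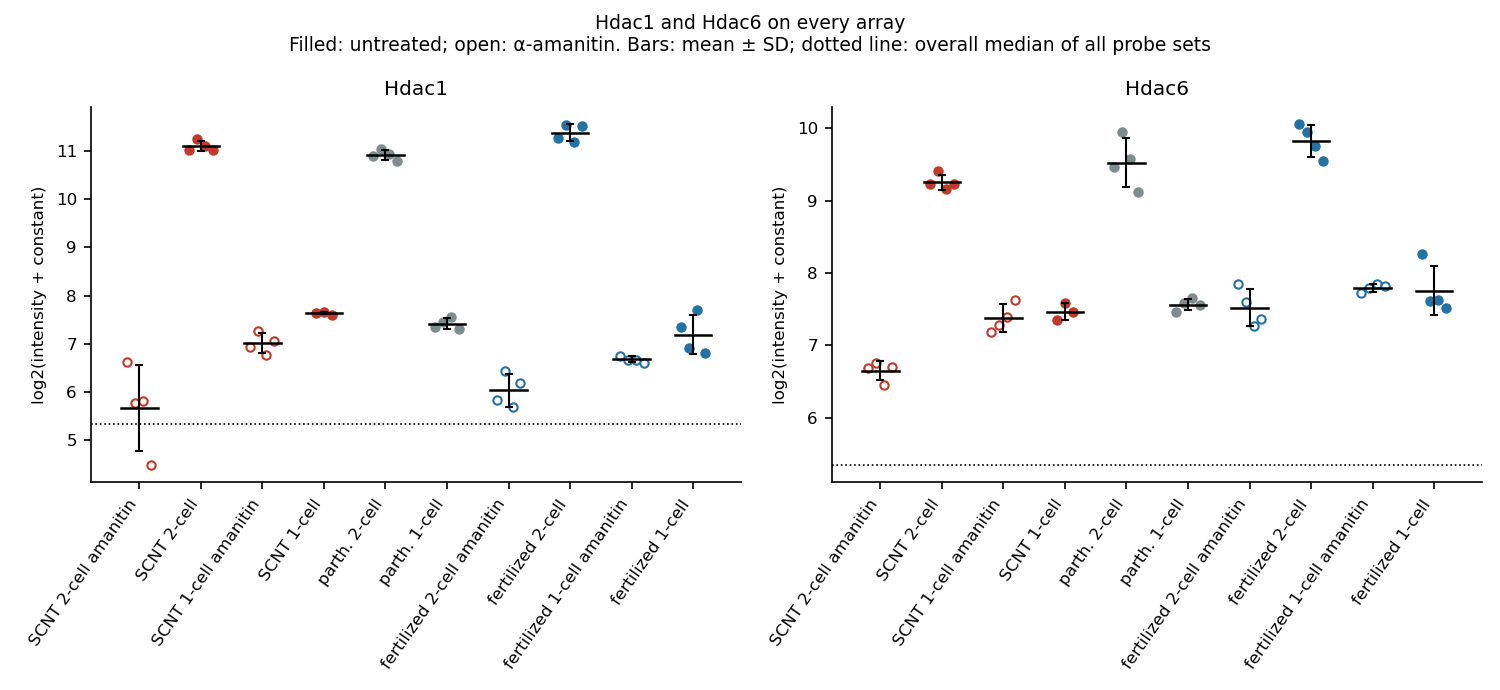
Log2 levels (y axis) of Hdac1 and Hdac6 on each of the 39 arrays, by group (x axis), with the mean ± SD of each group and the overall median of all probe sets as a dotted line. For both genes the 12 untreated 2-cell arrays lie above all 27 other arrays, from 10.79 upwards for Hdac1 and from 9.12 upwards for Hdac6.

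Hdac2, the close paralog of Hdac1 in the same complexes, did not share its pattern. In untreated 2-cell embryos it was at 10.49, 10.59, 10.35 and 10.74 in SCNT embryos and at 10.43, 10.31, 10.53 and 10.18 in parthenogenetic embryos, against 9.23, 9.09, 9.45 and 9.44 in fertilized embryos. The 4 fertilized 2-cell arrays were the lowest of all 39 arrays. Hdac2 was thus 2.36-fold higher in SCNT than in fertilized 2-cell embryos (1.24, SE 0.11, adjusted p = 2.06e-11) and 2.09-fold higher in parthenogenetic than in fertilized 2-cell embryos (1.06, SE 0.11, adjusted p = 2.30e-10). At the 1-cell stage it was at 10.26, 10.51 and 10.10 in SCNT, at 10.51, 10.43, 10.26 and 10.47 in parthenogenetic and at 9.89, 9.92, 9.87 and 10.28 in fertilized embryos. The parthenogenetic arrays overlapped the fertilized ones there and the difference was called (0.43, SE 0.11, adjusted p = 0.00476), while the SCNT minus fertilized difference was 0.30 (SE 0.12, adjusted p = 0.170).

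Between the stages Hdac2 fell in fertilized embryos (-0.69, SE 0.11, adjusted p = 1.27e-06), with no overlap of arrays. The 2-cell minus 1-cell difference was 0.25 in SCNT embryos (95% interval 0.0056 to 0.50, adjusted p = 0.0719) and -0.05 in parthenogenetic embryos (interval -0.28 to 0.17, adjusted p = 0.727). The stage change itself differed between SCNT and fertilized embryos (0.94, SE 0.17, adjusted p = 4.83e-05) and between parthenogenetic and fertilized embryos (0.63, SE 0.16, adjusted p = 0.00153). The last of these was no longer called with median centring (0.17, adjusted p = 0.581) or with the mean of the gene's probe sets (0.41, adjusted p = 0.0755). With median centring Hdac2 was called lower with stage in parthenogenetic embryos too (-0.68, adjusted p = 7.45e-05). The sign of its SCNT stage difference also depended on the setting. It was -0.26 with median centring (adjusted p = 0.137), and 0.44 and called with the mean of the probe sets (adjusted p = 0.00617).

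With amanitin at the 2-cell stage Hdac2 was at 10.65, 10.71, 10.69 and 10.72 in SCNT embryos and at 11.09, 10.89, 10.74 and 10.76 in fertilized embryos. In fertilized embryos that was 2.97-fold above the untreated arrays (1.57, SE 0.11, adjusted p = 1.57e-15), and in SCNT embryos the difference was 0.15 (95% interval -0.08 to 0.38, adjusted p = 0.236). The effect differed between the origins (-1.42, SE 0.16, adjusted p = 1.98e-09). At the 1-cell stage amanitin arrays of SCNT embryos had 10.54, 10.24, 10.22 and 10.47, and those of fertilized embryos 10.15, 10.28, 10.19 and 9.85. Within amanitin-treated embryos Hdac2 was higher at the 2-cell than at the 1-cell stage, by 0.75 in fertilized embryos (SE 0.11, adjusted p = 7.09e-07) and by 0.33 in SCNT embryos (SE 0.11, adjusted p = 0.0129). Both depended on the scaling: with median centring they were 0.32 (adjusted p = 0.0716) and -0.06 (adjusted p = 0.767). A second bright Hdac2 probe set gave -0.92 for stage and 1.91 for amanitin in fertilized embryos and 1.22 for SCNT minus fertilized 2-cell embryos. It differed from the chosen set elsewhere. At the 1-cell stage it was called lower in SCNT than in parthenogenetic embryos (-0.63, adjusted p = 0.0138). It was called lower with stage in parthenogenetic embryos (-0.51, adjusted p = 0.0104), and its stage change in parthenogenetic minus fertilized embryos was not called (0.41, adjusted p = 0.189). Its difference between stages under amanitin in SCNT embryos was not called either (0.15, adjusted p = 0.469), while in 2-cell embryos with amanitin it was called lower in SCNT than in fertilized embryos (-0.55, adjusted p = 0.00686). Its 10 group means correlated with those of the chosen set at r = 0.92 (10 groups, the same arrays). Another, dim set, above the overall median on 7 of 39 arrays, did not follow them (r = 0.07).

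**Figure D3:**
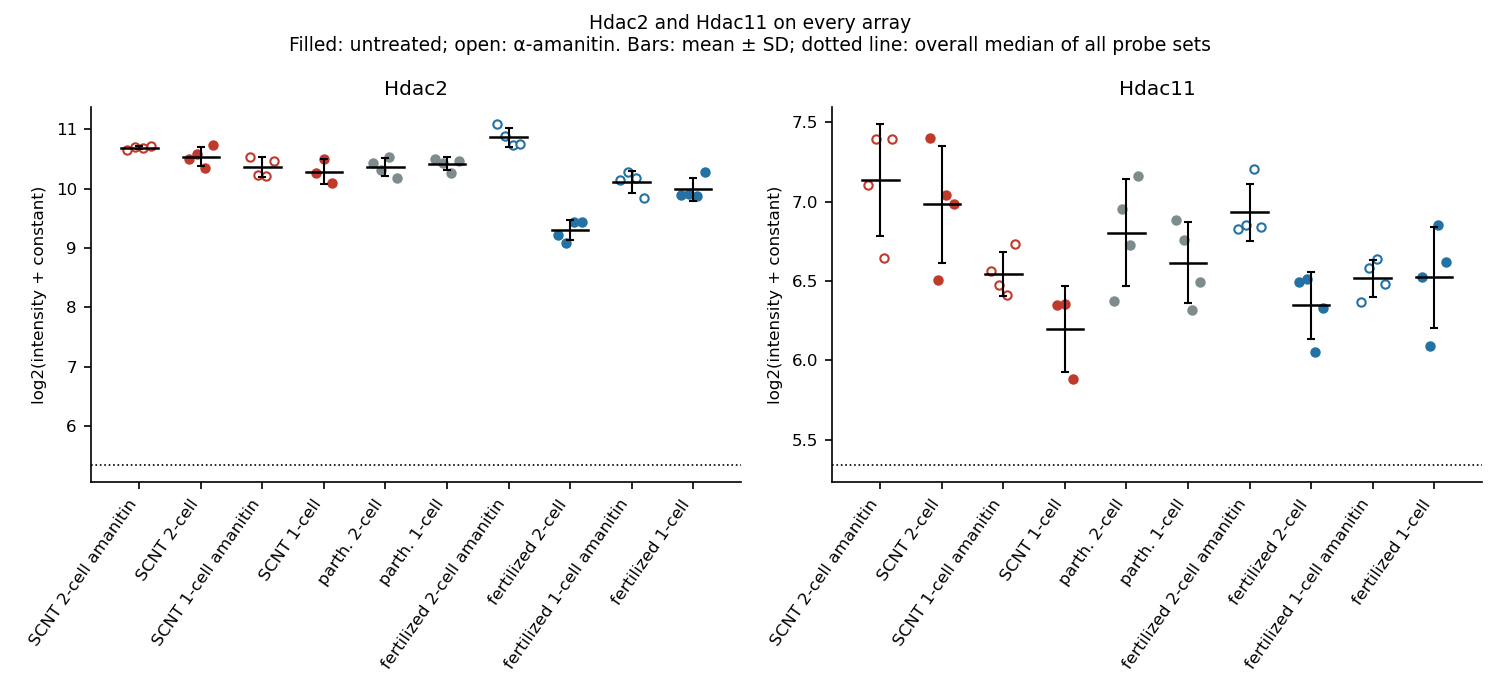
Log2 levels (y axis) of Hdac2 and Hdac11 on each array, by group (x axis), drawn as above. The fertilized 2-cell arrays of Hdac2, 9.09 to 9.45, lie below all other groups, and the Hdac11 groups overlap over a narrower range, 5.88 to 7.40.

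Hdac3, the catalytic subunit of the NCoR complex, was lower in 2-cell embryos of all 3 origins. Its 2-cell levels were 6.82, 6.46, 6.68 and 6.25 in SCNT, 6.42, 6.82, 6.63 and 6.60 in parthenogenetic and 6.44, 6.39, 6.82 and 6.23 in fertilized embryos. The 1-cell levels were 7.12, 7.24 and 7.0 in SCNT, 6.98, 6.98, 7.03 and 7.14 in parthenogenetic and 6.72, 6.87, 7.18 and 7.29 in fertilized embryos. The stages overlapped in fertilized embryos alone. The differences were -0.57 (SE 0.18, adjusted p = 0.00717) in SCNT, -0.42 (SE 0.17, adjusted p = 0.0387) in parthenogenetic and -0.54 (SE 0.17, adjusted p = 0.00532) in fertilized embryos. The parthenogenetic one was lost without any of 7 of its 8 arrays (adjusted p up to 0.115), and in the values as deposited it and the SCNT one were -0.16 (adjusted p = 0.464) and -0.35 (adjusted p = 0.103).

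In 2-cell embryos with amanitin Hdac3 was at 6.61, 6.66, 7.37 and 7.17 in SCNT embryos and at 7.29, 7.41, 7.39 and 6.95 in fertilized embryos. It rose relative to untreated embryos in fertilized embryos (0.79, SE 0.17, adjusted p = 8.53e-05) without overlap, and in SCNT embryos with overlap (0.40, SE 0.17, adjusted p = 0.0348). The SCNT call was lost without untreated replicate 2 or 4 or amanitin replicate 3 or 4 (differences 0.26 to 0.37, adjusted p = 0.0758 to 0.184). It was also lost with median centring (0.17), array weights (adjusted p = 0.0677), the compared arrays alone (0.165) and the values as deposited (0.257).

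Hdac8, an X-linked class I enzyme known for deacetylating cohesin, had dim values, above the overall median on 18 of 39 arrays, so the added constant sets part of its differences. In SCNT embryos it was at 4.68, 4.06, 3.80 and 4.32 at the 2-cell stage, against 5.22, 5.0 and 5.04 at the 1-cell stage, and fell (-0.87, SE 0.28, adjusted p = 0.00611, lost in the values as deposited at -0.58, adjusted p = 0.0836). In parthenogenetic and fertilized embryos the difference was -0.59 and -0.57 (SE 0.26 each, adjusted p = 0.0536 and 0.0527). The parthenogenetic one was -0.13 in the values as deposited (adjusted p = 0.705), and the fertilized one was -0.28 without 2-cell replicate 4 (adjusted p = 0.358). Both passed with no variance trend (adjusted p = 0.0285 and 0.0279) and with array weights (0.0410 and 0.0382). The 2-cell SCNT arrays with amanitin had 4.75, 4.58, 5.38 and 4.96. Fertilized arrays with amanitin had 5.71, 5.72, 5.66 and 5.66, against 5.20, 5.01, 5.11 and 3.93 without it. Hdac8 rose with amanitin by 0.70 in SCNT embryos (SE 0.26, adjusted p = 0.0143) and by 0.87 in fertilized embryos (SE 0.26, adjusted p = 0.00301). The SCNT call was lost without untreated replicate 3 (0.57, adjusted p = 0.0660) or amanitin replicate 3 (0.55, adjusted p = 0.0713) and with the compared arrays alone (adjusted p = 0.0656).

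Class IIa enzymes have little deacetylase activity of their own and recruit class I enzymes to MEF2 and other factors. Hdac4, which restrains MEF2 in muscle and bone, was the dimmest member, above the overall median on 8 arrays, with deposited intensities of 1.5 to 43.6. Those 8 were all 1-cell arrays, 4 of fertilized embryos with amanitin, 3 of untreated parthenogenetic and 1 of untreated fertilized embryos. The filter thus admitted Hdac4 only through groups where it was high. Its differences in comparisons with these groups are not independent of that choice. With no filter the stage calls stayed (adjusted p = 0.0448 in SCNT, 0.00507 in parthenogenetic and 4.28e-06 in fertilized embryos). The probe set and its differences are the same in that setting, so it cannot address this dependence. At the 2-cell stage it was at 4.00, 4.44, 4.24 and 4.26 in SCNT, at 4.97, 4.80, 4.27 and 4.48 in parthenogenetic and at 3.04, 4.30, 3.87 and 3.22 in fertilized embryos. At the 1-cell stage it was at 4.91, 5.34 and 4.48 in SCNT, at 5.08, 5.67, 5.83 and 5.54 in parthenogenetic and at 5.34, 5.39, 5.05 and 4.74 in fertilized embryos. The stages did not overlap in any origin. The difference was -0.67 in SCNT (SE 0.30, adjusted p = 0.0460), -0.90 in parthenogenetic (SE 0.27, adjusted p = 0.00577) and -1.52 in fertilized embryos (SE 0.27, adjusted p = 6.31e-06). The 4 fertilized 2-cell arrays had deposited intensities of 1.5 to 13.2, around the added constant of 6.9, so the constant sets much of that size: it was -2.19 with the constant at the 5th percentile and -0.86 at the 40th. With the mean of its 3 probe sets it was -0.66 (adjusted p = 0.0261), and the other 2 sets alone gave -0.05 and -0.40, neither called.

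The SCNT call of Hdac4 was lost without any of 5 of 7 arrays (adjusted p up to 0.245) and under 4 other settings. Under amanitin at the 2-cell stage Hdac4 was at 4.28, 4.95, 4.52 and 5.15 in fertilized embryos and higher than without it (1.12, SE 0.27, adjusted p = 0.000457), while in SCNT embryos (4.95, 5.15, 4.51 and 4.53) the difference was 0.55 (SE 0.27, adjusted p = 0.0719). Hdac4 was not called for the difference of these effects, SCNT minus fertilized (-0.57, adjusted p = 0.263). In amanitin-treated fertilized embryos it was lower at the 2-cell than at the 1-cell stage (-1.02, SE 0.27, adjusted p = 0.00248; -0.59, adjusted p = 0.0722, in the values as deposited and -0.04, adjusted p = 0.932, with the mean of its probe sets). Its other 2 probe sets were as dim and did not follow it (r = -0.32 and -0.40 over the 10 group means). With the mean of the 3 sets the parthenogenetic stage difference was 0.08 (adjusted p = 0.820) and the amanitin difference in fertilized embryos 0.30 (adjusted p = 0.311).

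Hdac5, known from heart and neurons, was called higher at the 2-cell stage in 2 origins. Its levels in SCNT embryos were 6.62, 6.07, 5.66 and 6.40 at the 2-cell stage, against 5.28, 5.29 and 4.66 at the 1-cell stage, with no overlap (1.11, SE 0.33, adjusted p = 0.00311). In fertilized embryos they were 6.29, 6.22, 6.02 and 5.47 at the 2-cell stage, against 4.78, 5.69, 5.40 and 4.12 at the 1-cell stage, with overlap (1.00, SE 0.30, adjusted p = 0.00394). In parthenogenetic embryos, with 5.90, 5.65, 6.28 and 5.38 at the 2-cell stage against 5.31, 4.96, 5.35 and 5.34 at the 1-cell stage, the difference was 0.56 (95% interval -0.05 to 1.18, adjusted p = 0.121). The stages did not overlap there either. The stage change in parthenogenetic minus fertilized embryos was not called (-0.44, adjusted p = 0.472). With amanitin, 2-cell arrays ran from 4.94 to 6.08 in SCNT and from 5.12 to 6.16 in fertilized embryos. Those differences, -0.59 and -0.40 (SE 0.30 each), did not pass (adjusted p = 0.0824 and 0.248).

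Hdac7, known for its role in blood vessels and thymocytes, changed at the 2-cell stage mainly in SCNT embryos. Its levels in 2-cell SCNT embryos were 7.71, 7.02, 7.96 and 7.72 with amanitin, against 6.48, 6.62, 6.35 and 6.68 without it, a 2.11-fold rise with no overlap (1.07, SE 0.21, adjusted p = 1.52e-05). In 2-cell fertilized embryos they were 7.33, 6.78, 7.28 and 6.23 with amanitin, against 7.16, 6.76, 6.89 and 6.44 without it (0.09, 95% interval -0.32 to 0.51, adjusted p = 0.713). The effects differed between the origins (0.98, SE 0.29, adjusted p = 0.00629). Untreated 1-cell SCNT arrays had 6.98, 7.05 and 7.27, and the 2-cell arrays lay below all 3 (-0.57, SE 0.22, adjusted p = 0.0261). That call was lost without 1-cell replicate 4 (adjusted p = 0.106) or 2-cell replicate 3 (adjusted p = 0.0672) and in the values as deposited (-0.35, adjusted p = 0.172). In parthenogenetic and fertilized embryos the stage differences were 0.16 and 0.18 (SE 0.21 each, adjusted p = 0.558 and 0.470).

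Hdac10, a polyamine deacetylase of class IIb, was higher at the 2-cell stage in SCNT embryos (0.74, SE 0.29, adjusted p = 0.0275) and in parthenogenetic embryos (0.65, SE 0.27, adjusted p = 0.0452). The SCNT levels were 6.72, 6.18, 6.15 and 6.09 at the 2-cell stage, against 4.98, 5.77 and 5.88 at the 1-cell stage, and the parthenogenetic levels were 6.18, 5.87, 6.14 and 6.27 at the 2-cell stage, against 5.17, 5.14, 5.96 and 5.61 at the 1-cell stage. The stages overlapped in parthenogenetic embryos only of these 2 origins. Single arrays carried both calls. The SCNT difference was 0.46 without 1-cell replicate 1 (adjusted p = 0.232) and 0.60 without 2-cell replicate 1 (adjusted p = 0.0991), and the parthenogenetic one was lost without any of 6 of 8 arrays (adjusted p up to 0.137). In fertilized embryos the stage difference was 0.38 (SE 0.27, adjusted p = 0.230), though the stages did not overlap (6.05 to 6.43 against 5.62 to 6.01). The stage change was not called different from the fertilized one in SCNT (0.36, adjusted p = 0.615) or parthenogenetic embryos (0.26, adjusted p = 0.649). Hdac10 fell with amanitin in 2-cell fertilized embryos, to 5.75, 5.24, 5.04 and 5.38 against 6.23, 6.43, 6.05 and 6.08 without it (-0.84, SE 0.27, adjusted p = 0.00639), and that call held without each array in turn. In SCNT embryos, at 6.08, 5.78, 6.53 and 5.82 with amanitin, the difference was -0.23 (95% interval -0.78 to 0.32). The amanitin effect in SCNT minus that in fertilized embryos was not called (0.62, adjusted p = 0.217).

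Hdac11, the sole class IV enzyme, removes long-chain fatty acyl groups more readily than acetyl groups. In SCNT embryos it was at 7.40, 6.51, 7.04 and 6.99 at the 2-cell stage, against 6.35, 6.36 and 5.88 at the 1-cell stage, a rise with no overlap (0.79, SE 0.22, adjusted p = 0.00169). In fertilized embryos it was at 6.49, 6.51, 6.05 and 6.33 at the 2-cell stage, against 6.53, 6.09, 6.85 and 6.62 at the 1-cell stage (-0.17, SE 0.20, adjusted p = 0.475). The stage change differed between SCNT and fertilized embryos (0.96, SE 0.29, adjusted p = 0.0167), a call lost without SCNT 1-cell replicate 4 (0.80, adjusted p = 0.0756). In parthenogenetic embryos, at 6.38, 6.96, 6.72 and 7.16 at the 2-cell stage against 6.89, 6.76, 6.32 and 6.50 at the 1-cell stage, the stage difference was 0.19 (SE 0.20, adjusted p = 0.462). With amanitin, 2-cell fertilized embryos had 6.83, 6.85, 7.20 and 6.84, above every untreated array (0.58, SE 0.20, adjusted p = 0.0102), and 2-cell SCNT embryos had 7.11, 7.40, 6.64 and 7.39 (0.15, SE 0.20, adjusted p = 0.514).

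**Figure D4:**
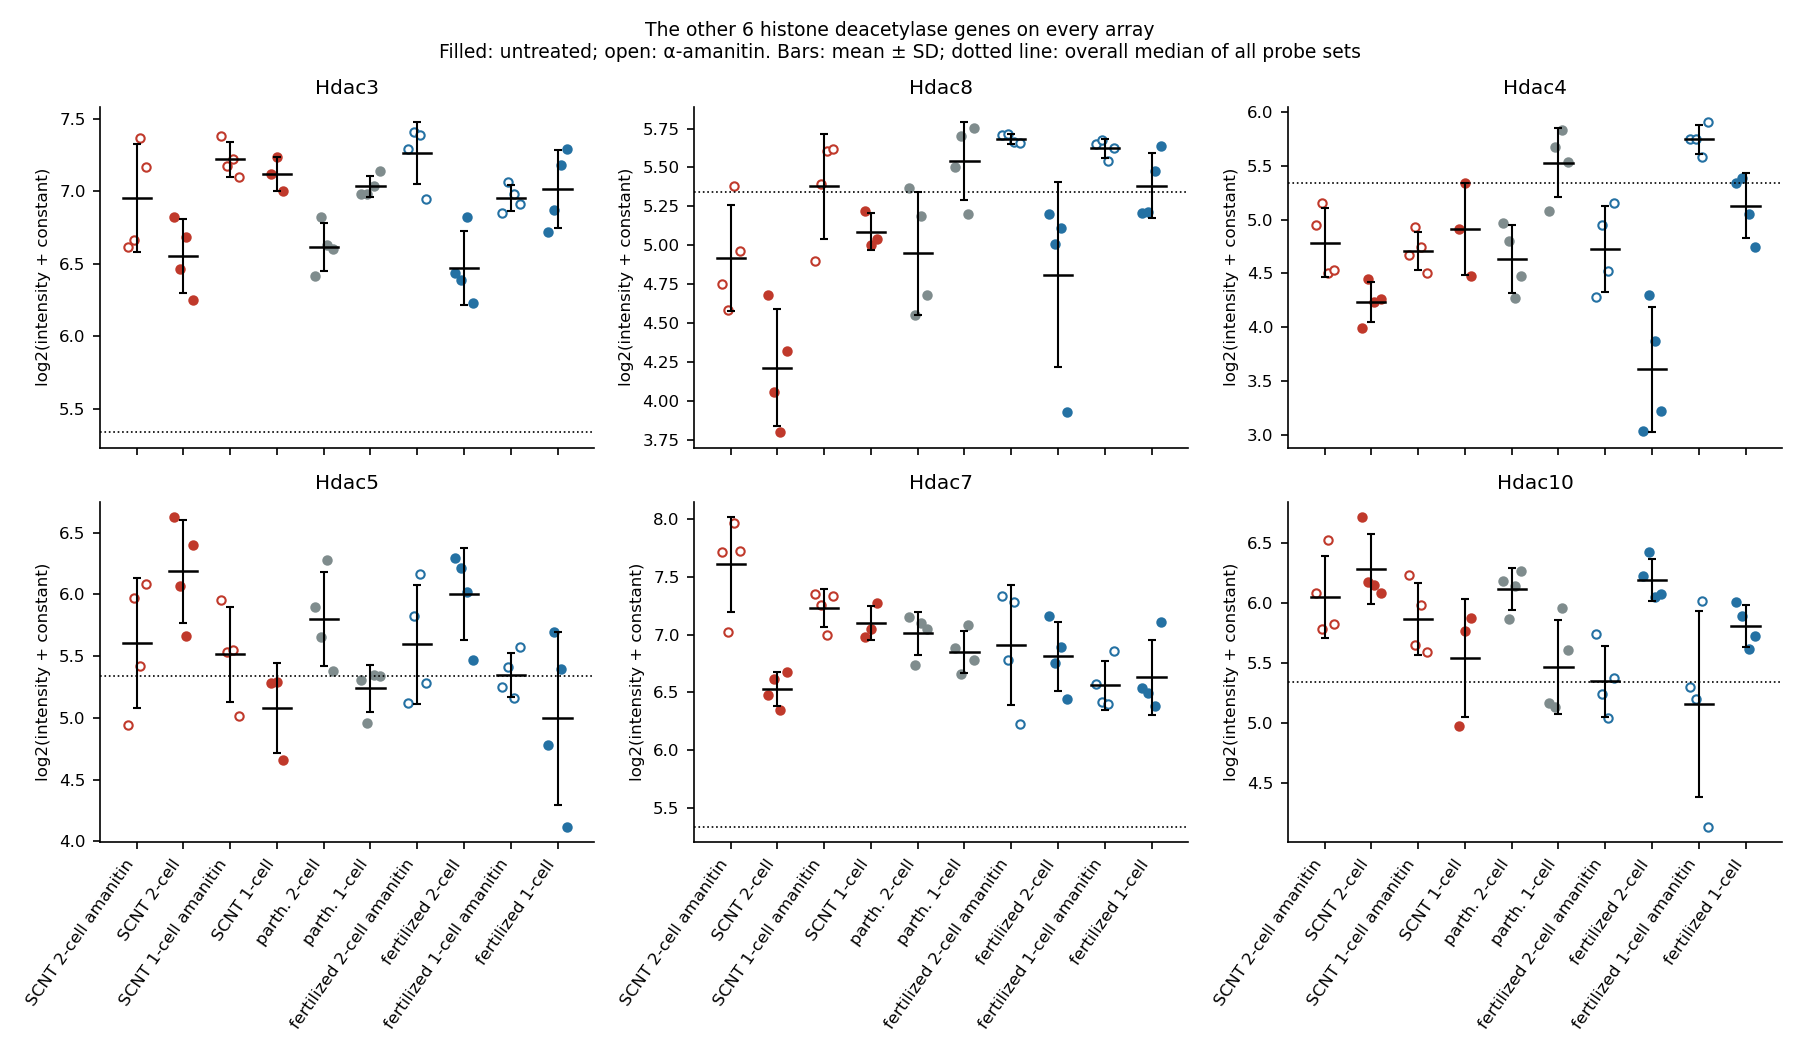
Log2 levels (y axis, a scale of its own for each gene) of Hdac3, Hdac8, Hdac4, Hdac5, Hdac7 and Hdac10 on each array, by group (x axis), with group means ± SD. Hdac4 lies above the dotted overall median of 5.34 on 8 of 39 arrays and Hdac8 on 18, while the 4 arrays of amanitin-treated 2-cell SCNT embryos for Hdac7, 7.02 to 7.96, hold its highest group mean.

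Between origins at the 2-cell stage, 3 of 10 members were called for SCNT minus fertilized embryos (30.6% of all genes), 2 for SCNT minus parthenogenetic embryos (54.5%) and 2 for parthenogenetic minus fertilized embryos (47.4%), which is no more than these backgrounds. Beside Hdac2, Hdac11 was higher in SCNT than in fertilized embryos (0.64, SE 0.20, adjusted p = 0.0125, lost without SCNT replicate 1 at 0.50 or fertilized replicate 3 at 0.54) and Hdac6 was lower (-0.57, SE 0.15, adjusted p = 0.00329), its SCNT arrays all below the fertilized ones. Hdac8 (-0.73, SE 0.26, adjusted p = 0.0142) and Hdac7 (-0.48, SE 0.21, adjusted p = 0.0475) were lower in SCNT than in parthenogenetic embryos. Both calls rested on single arrays: without SCNT replicate 3 neither passed (adjusted p = 0.0663 for Hdac8 and 0.119 for Hdac7), nor without parthenogenetic replicate 1 (0.0670 and 0.108). Hdac7 was also lost without 4 other arrays, and with median centring (-0.36, adjusted p = 0.13). Hdac4 was higher in parthenogenetic than in fertilized embryos (1.02, SE 0.27, adjusted p = 0.00176; 0.40, adjusted p = 0.221, with the mean of its probe sets).

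Between origins at the 1-cell stage no member was called by limma for SCNT minus fertilized embryos (5.56% of all genes) or SCNT minus parthenogenetic embryos (14.2%), with 2 and 1 at an unadjusted p under 0.05. The second bright Hdac2 probe set, not the chosen one, was called lower in SCNT than in parthenogenetic embryos (-0.63, adjusted p = 0.0138). Hdac2 was the 1 member called for parthenogenetic minus fertilized embryos (20.4% of all genes). Under amanitin, SCNT minus fertilized embryos had 3 members called at the 1-cell stage (21.5% of all genes). There Hdac7 was higher (0.67, SE 0.21, adjusted p = 0.0155; lost without fertilized replicate 3, adjusted p = 0.0521), Hdac4 lower (-1.03, SE 0.27, adjusted p = 0.00456; 0.23 with the mean of its probe sets, adjusted p = 0.628) and Hdac6 lower (-0.42, SE 0.15, adjusted p = 0.0427; lost without any of 7 of 8 arrays). At the 2-cell stage under amanitin 4 were called (43.2% of all genes). Hdac6 was lower in SCNT embryos (-0.87, SE 0.15, adjusted p = 8.01e-06), with all arrays below the fertilized ones. Hdac8 was lower (-0.76, SE 0.26, adjusted p = 0.0136), and Hdac7 (0.70, SE 0.21, adjusted p = 0.00511) and Hdac10 (0.70, SE 0.27, adjusted p = 0.0331) were higher. All 3 were lost with the compared arrays alone. Hdac8 was also lost without SCNT replicate 2 (adjusted p = 0.0526), Hdac7 without fertilized replicate 4 (0.0603) and Hdac10 without any of 5 of 8 arrays (up to 0.131).

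From the 1-cell to the 2-cell stage under amanitin, SCNT embryos had 2 members higher (25.6% of all genes), Hdac2 and Hdac11, and 2 lower (29.8%), Hdac1 and Hdac6. Hdac11 rose by 0.59 (SE 0.20, adjusted p = 0.0115; 0.27, adjusted p = 0.250, with median centring). Fertilized embryos had 1 member higher (21.5%), Hdac2, and 2 lower (19.0%), Hdac1 and Hdac4. Of the differences between origins, 2 members were called for the amanitin effect at the 2-cell stage, SCNT minus fertilized (38.9% of all genes), 2 for the stage change, SCNT minus fertilized (19.0%), and 1 for the stage change, parthenogenetic minus fertilized (35.4%).

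In the order of its 10 group means, Hdac1 had the 3 untreated 2-cell groups on top, whose arrays overlap with their neighbours in the order, then a gap down to 1-cell SCNT embryos (10.92 against 7.64). Hdac6 had the same 3 groups on top and a gap down to 1-cell fertilized embryos with amanitin (9.25 against 7.79), below which all neighbouring groups overlapped except the lowest, 2-cell SCNT embryos with amanitin (6.65). Hdac2 had 2-cell embryos with amanitin on top (10.87 in fertilized, 10.69 in SCNT) and fertilized 2-cell embryos at the bottom (9.30). All neighbours overlapped in the order of Hdac8, Hdac4, Hdac5, Hdac7, Hdac10 and Hdac11, and for Hdac3 all but 1-cell fertilized embryos with amanitin (6.95) and 2-cell parthenogenetic embryos (6.62).

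Over the 10 group means, which share arrays and scaling, Hdac1 and Hdac6 correlated at r = 0.96, and Hdac1 and Hdac3 at r = -0.89. Of all genes tested, those with the pattern most like Hdac1 were Plpbp and Ncbp1 (r = 0.99 each), and those most like Hdac6 were Rnf6 (r = 0.99) and Atad2 (r = 0.99). Hdac2 was most like 4933408N05Rik (r = 0.94) and Ntan1 (r = 0.93), Hdac3 most like Dop1a and Pyurf (r = 0.98 each), and Hdac7 most like Msl2 (r = 0.94) and Acsm2 (r = 0.92).

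Subunits that carry class I enzymes to chromatin moved in both directions. The counts of the lists below are to be read against the shares of all genes called, which in fertilized embryos were 25.8% higher and 34.2% lower for stage and 38.6% higher and 25.8% lower for amanitin at the 2-cell stage. Of 11 NuRD genes, a nucleosome remodelling and deacetylase complex, 2 rose and 6 fell from the 1-cell to the 2-cell stage in fertilized embryos (median -0.29, against -0.12 over all genes). Mta2, a scaffold for Hdac1 and Hdac2, rose by 5.54 (SE 0.47, adjusted p = 2.48e-13), while its paralog Mta3 (-1.91, SE 0.16, adjusted p = 1.82e-13) and Gatad2b (-1.70, SE 0.15, adjusted p = 7.29e-13) fell. Rbbp4, a histone chaperone, did not pass (0.30, adjusted p = 0.391). With amanitin in 2-cell fertilized embryos 7 NuRD genes rose and 2 fell (median 1.01, against 0.27 over all genes), with Mta2 at -4.28 (SE 0.47) and the remodeller Chd4 at 2.10 (SE 0.14). In SCNT embryos the counts were 1 higher and 6 lower for stage (26.3% and 34.4% of all genes), and 7 higher and 3 lower for amanitin (39.6% and 29.7% of all genes).

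Of 12 SIN3 genes tested, 5 rose and 4 fell with stage in fertilized embryos. Arid4b (2.43, SE 0.18, adjusted p = 1.97e-15) and Arid4a (1.84, SE 0.16, adjusted p = 7.90e-13) were higher and Sap30 was lower (-1.44, SE 0.15, adjusted p = 4.59e-11), while Ing2 did not pass (-0.32, adjusted p = 0.173). With amanitin 5 rose and 6 fell, led by Arid4a (-2.91, SE 0.16) and Ing1 (-2.59, SE 0.14). In 2-cell SCNT minus fertilized embryos the scaffold gene Sin3b was higher (1.90, SE 0.13, adjusted p = 5.65e-15) and Brms1l lower (-1.45, SE 0.12, adjusted p = 7.57e-13), with 3 SIN3 genes higher, 1 lower and 8 not called (30.6% of all genes called).

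Of 6 CoREST genes tested, 3 rose and 2 fell with stage in fertilized embryos, with the scaffold Rcor1 at 1.59 (SE 0.09, adjusted p = 3.32e-18) and the histone demethylase Kdm1a at -0.76 (SE 0.18, adjusted p = 0.000324). With amanitin 2 rose and 2 fell. Of the 3 genes tested of the NCoR complex, Hdac3's own, Tbl1xr1 fell with stage (-1.54, SE 0.16, adjusted p = 3.28e-11) and Tbl1x did not pass (0.45, adjusted p = 0.102). With amanitin 2 rose, Tbl1xr1 (2.14, SE 0.16) and Gps2 (0.40, SE 0.16, adjusted p = 0.0270). Of 5 MiDAC and MIER genes, 2 rose and 2 fell with stage, with Mier3 at 2.45 (SE 0.11, adjusted p = 3.51e-22). The MEF2 genes, partners of class IIa enzymes, had 2 of 4 lower, Mef2b (-2.40, SE 0.29, adjusted p = 1.68e-09) and Mef2c (-0.73, SE 0.32, adjusted p = 0.0458).

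Genes of other deacetylases, of acetyltransferases and of readers of acetylated histones were mixed as well. Of 7 sirtuins, the class III deacetylases, 1 rose and 2 fell with stage in fertilized embryos, namely Sirt1 (2.28, SE 0.15, adjusted p = 7.73e-17), Sirt2 (-1.09, SE 0.36, adjusted p = 0.00849) and Sirt4 (-0.93, SE 0.38, adjusted p = 0.0329). With amanitin Sirt1 was lower (-1.76, SE 0.15, adjusted p = 1.49e-13), as was Sirt7 (-2.74, SE 0.35, adjusted p = 8.97e-09), and 3 sirtuins were higher. Of 15 histone acetyltransferase genes, 6 rose and 5 fell with stage. Kat2b (4.64, SE 0.31, adjusted p = 1.30e-16), Ep300 (2.05, SE 0.14, adjusted p = 2.49e-16) and Kat2a (2.01, SE 0.13, adjusted p = 8.43e-17) were higher, and with amanitin Kat2b was at -4.53 (SE 0.31) and Ep300 at -1.35 (SE 0.14). In parthenogenetic minus fertilized 2-cell embryos 3 acetyltransferase genes were higher and 9 lower (47.4% of all genes called in either direction; median -0.70, against 0.07 over all genes), Kat2b the most (-3.25, adjusted p = 1.21e-11). Of 3 BET readers of acetylated histones tested, Brd2 (1.51, SE 0.25, adjusted p = 1.49e-06) and Brd3 (0.51, SE 0.17, adjusted p = 0.0107) rose with stage in fertilized embryos.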

How the data were processed

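RNA of 1-cell and 2-cell mouse embryos was hybridised to Affymetrix arrays, 1 sample an array, after PicoPure extraction and Enzo biotin labelling, per the labels' protocols. The deposited values are linear intensity per probe set. Their trimmed mean, 2% off each end, is 150 on all 39 arrays with values, so the authors scaled each array to a common total; the software is not given in the sources used here. From these, 64 control probe sets of 45101 were set aside, 6.9 (the 20th percentile) was added, log2 was taken of the deposited values, and quantile normalization followed, since array medians spread from 4.92 to 5.74. A probe set had to exceed the overall median (5.34) on 4 or more arrays, as 31153 did. Of all probe sets, 34945 were annotated to 1 gene, 932 to several and 9160 to none, by GEO's platform annotation, which can be old. Each of 14916 genes was read from its probe set of highest mean. The model, 1 mean a group, was fitted in R 4.3.3 by limma 3.58.1 (trend, 29 residual degrees of freedom), with two-sided tests and Benjamini-Hochberg adjustment over all genes at 0.05. The steps were tested on simulated data.

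Groups follow the labels. The letter A in a title was read as α-amanitin, which the labels spell out for 7 of the 8 SCNT samples that carry it. For the fertilized samples that reading rests on the same letter and the design text. Members and lists were chosen with earlier results of these data known. Genes of the lists were named by size: up to 3 called genes with the largest change and 1 not called per list. Alternatives covered the filter, the constant, the normalization, the probe sets, the variance model, the arrays and a block for the replicate number. Same-numbered arrays did not deviate together: over 45 pairs of groups the mean correlation of their deviations ran from -0.0351 to 0.0884, so the numbers were not used as pairs. Some genes of the lists had no test, among them Sap18, Ncor1, Trerf1, Cyp19a1, Hbb-bt, Zscan4d, Ptx3, Tnp1, Tnp2 and Ptprc, and some items are not reported here.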

Additional observations from a re-analysis of the deposited data

Results flagged for a closer look

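In 6 of 90 sets of 4 arrays (10 genes over the groups of 4) 1 array lay far from the other 3, where chance alone gives about 1 in 20. Hdac6 was at 8.26 in fertilized 1-cell replicate 1, against 7.52 to 7.62 in the others. Hdac2 was at 10.28 in fertilized 1-cell replicate 4, against 9.87 to 9.92. Hdac8 was at 3.93 in fertilized 2-cell replicate 4, against 5.01 to 5.20. Hdac10 was at 6.72 in SCNT 2-cell replicate 1, against 6.09 to 6.18, and Hdac11 at 7.20 in fertilized 2-cell amanitin replicate 3, against 6.83 to 6.85. Hdac5 was at 4.96 in parthenogenetic 1-cell replicate 2, against 5.31 to 5.35.

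Effects that differed between origins by a test of the difference itself concerned 3 genes. For Hdac2 the amanitin effect at the 2-cell stage in SCNT minus fertilized embryos was -1.42 (limma, adjusted p = 1.98e-09), the stage change in SCNT minus fertilized embryos 0.94 (adjusted p = 4.83e-05) and that in parthenogenetic minus fertilized embryos 0.63 (adjusted p = 0.00153). The last was lost with median centring (0.17, adjusted p = 0.581), with the mean of the probe sets (0.41, adjusted p = 0.0755) and in the gene's second bright probe set (0.41, adjusted p = 0.189). For Hdac7 the amanitin effect differed by 0.98 (adjusted p = 0.00629), and for Hdac11 the stage change by 0.96 (adjusted p = 0.0167), both SCNT minus fertilized embryos. The Hdac11 difference was lost without SCNT 1-cell replicate 4 (0.80, adjusted p = 0.0756).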

How the results depend on the processing

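Of 60 called results of single members, 42 kept their call without each array in turn and 32 of these also under every other setting; Hdac5 (2 of 2), Hdac2 (9 of 10) and Hdac6 (8 of 9) kept most calls without each array, Hdac10 (1 of 4) and Hdac7 (2 of 6) fewest. The replicate block (for example -5.35 for Hdac1 with amanitin in 2-cell fertilized embryos) changed no call of a member. Nor did omitting both replicate 1 of untreated fertilized 1-cell embryos and replicate 4 of amanitin-treated SCNT 1-cell embryos, chosen after seeing the data. Hdac8 and Hdac4 have no value with the filter on the mean. Leaving out 1 array gave 3 to 5 members called for stage in parthenogenetic embryos, 3 to 5 for amanitin in 2-cell SCNT embryos, 0 to 1 for amanitin in 1-cell fertilized embryos, 0 to 2 for 2-cell SCNT minus parthenogenetic embryos, 2 to 4 for 2-cell SCNT minus fertilized embryos under amanitin, 1 to 3 for the stage change in SCNT minus fertilized embryos and 1 to 2 for that in parthenogenetic minus fertilized embryos. For 2-cell SCNT minus parthenogenetic embryos 1 member was called, not 2, with no filter, the filter on the mean, the values as deposited, median centring or the compared arrays alone. Values as deposited gave 5 for stage in SCNT embryos and 2 for amanitin in 1-cell fertilized embryos, where median centring gave 1. The stage change in parthenogenetic minus fertilized embryos had 2 with values as deposited, the constant at the 40th percentile, array weights or the compared arrays alone, and 0 with the mean of the probe sets. Median centring gave 4 for 2-cell parthenogenetic minus fertilized embryos and no variance trend gave 5 for 2-cell SCNT minus fertilized embryos. The compared arrays alone gave 3 for amanitin in 2-cell SCNT embryos and 1 for 2-cell SCNT minus fertilized embryos under amanitin. Reversed with median centring was Hdac2 between stages under amanitin in SCNT embryos (-0.056). The mean of the probe sets reversed Hdac4 for stage in parthenogenetic embryos (0.084) and for 1-cell SCNT minus fertilized embryos under amanitin (0.23). Dimmer probe sets reversed more. For Hdac7 the other set gave 0.25 for stage in SCNT embryos, 0.54 for 2-cell SCNT minus parthenogenetic embryos, -0.20 and -0.047 for SCNT minus fertilized embryos under amanitin at the 1-cell and 2-cell stages and -0.72 for the difference of amanitin effects. For Hdac2 the dim set gave 0.72 and 0.91 for stage in fertilized and parthenogenetic embryos, -0.26 for amanitin in 2-cell fertilized embryos, -0.17 for 2-cell SCNT minus fertilized embryos and 0.68 for the difference of amanitin effects. For Hdac10 it gave -0.15 for stage in SCNT embryos and 0.018 for amanitin in 2-cell fertilized embryos, and for Hdac11 -1.35 for amanitin in 2-cell SCNT embryos. For Hdac4 the other sets gave 0.23 and 0.92 for stage in parthenogenetic embryos, 0.56 and 0.34 between stages under amanitin in fertilized embryos and 1.11 and 0.60 for 1-cell SCNT minus fertilized embryos under amanitin, and the first of them -0.29 for amanitin in 2-cell fertilized embryos and -0.16 for 2-cell parthenogenetic minus fertilized embryos. The cause of these changes was not tested.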

Other observations

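Hdac9, the class IIa gene outside the 10 described above, was looked at after its values were known. Its tested probe set was lower at the 2-cell than at the 1-cell stage in SCNT embryos (5.92 ± 0.25 at the 2-cell stage, SD, n = 4, against 7.89 ± 0.06, n = 3, limma difference -1.97, SE 0.17, adjusted p = 1.79e-13). It was also lower in fertilized embryos (6.70 ± 0.32 against 7.55 ± 0.16, n = 4 each; -0.85, SE 0.15, adjusted p = 7.30e-06) and in parthenogenetic embryos (7.71 ± 0.34 against 8.25 ± 0.08, n = 4 each; -0.54, SE 0.15, adjusted p = 0.00320), with overlap of arrays in the last alone. With amanitin at the 2-cell stage Hdac9 was at 8.95 ± 0.09 in SCNT and 8.37 ± 0.10 in fertilized embryos (n = 4 each), above the untreated arrays by 3.03 (SE 0.15, limma adjusted p = 2.41e-20) and by 1.67 (SE 0.15, adjusted p = 1.83e-12). The amanitin effect differed between SCNT and fertilized embryos (1.37, SE 0.22, adjusted p = 2.22e-06), as did the stage change (-1.12, SE 0.23, adjusted p = 0.000294).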
